A study of Mus musculus with 12 samples.

Results

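The genes Klra3, Klra4, Klra7, Klra8, Klra9, Klrb1c, Klrc1, Klrc2, Klrd1 and Klrk1, which encode killer lectin receptors, were followed in 12 mouse spleens. These 10 genes were taken by symbol from the 18221 genes in the expression tables, and all 10 lie in the natural killer gene complex of chromosome 6. The list was chosen by the levels of these genes in the same 12 spleens (summed RPKM per group and mouse), so the levels and differences of these genes are given as a description and support nothing. Levels are in RPKM, reads scaled to the length of the transcript and the depth of the library, summed over the RefSeq transcripts of a gene (30 transcripts for the 10 genes). Since RPKM is scaled to transcript length, levels of different genes can be set side by side.

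The spleens came from male ICR mice, an outbred stock, that entered the experiment at 3 weeks of age and were sampled at 8 weeks, with 3 mice in each of 4 groups. Con-sa mice received saline only. B-sa mice received a single injection of busulfan at 40 mg/kg and then saline. B+Con-FMT mice received the same injection and then, once a day for 2 weeks by mouth, gut microbiota from control mice. B+A10-FMT mice received busulfan and then microbiota from mice dosed with alginate oligosaccharide (AOS) at 10 mg/kg. Each inoculum was pooled from the small intestine contents of the donor mice of 1 group, so the 3 mice of a transfer group shared a donor pool. Busulfan is an alkylating drug that depletes the cells of the bone marrow. The library of each mouse was taken as 1 replicate. Because the samples are whole spleen, fewer cells of a type and less RNA per cell cannot be told apart.

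Natural killer cells carry germ line encoded receptors of the C-type lectin fold, and the balance of inhibitory and activating receptors sets whether the cell kills its target. In the mouse the Klra genes encode the Ly49 receptors, most of which read classical major histocompatibility complex (MHC) class I molecules. Klrd1 encodes CD94, which pairs with the NKG2 chains encoded by Klrc1 and Klrc2 to read the nonclassical molecule Qa-1, and Klrk1 encodes NKG2D, which reads stress-induced ligands. The complex is known for copy number and sequence differences between mouse strains, and reads from alleles of an outbred stock were assigned here to reference transcripts.

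In the GRCm38 annotation the genes ran from Klrb1c at chr6:128778485-128789215 through Klrd1 at chr6:129591782-129598775, Klrk1 at chr6:129610323-129623864, Klrc2 at chr6:129647496-129660689 and Klrc1 at chr6:129666015-129678973 to the Klra cluster. Within that cluster the order was Klra4 at chr6:130043731-130067271, Klra8 at chr6:130115226-130129898, Klra9 at chr6:130178675-130193112, Klra7 at chr6:130218605-130233322 and Klra3 at chr6:130323289-130337574. Klrd1 lay on the plus strand and the other 9 genes on the minus strand. All are annotated as protein coding.

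The first 60 coding bases of the 5 Klra genes are shown because they encode the start of the cytoplasmic tail, the part of a Ly49 receptor in which inhibitory and activating members differ in their signalling motif. They were read from the GENCODE transcripts that match curated RefSeq transcripts. All 5 stretches lie in exon 2 on the minus strand (Klra3 at chr6:130335740-130335799, Klra7 at chr6:130231558-130231617, Klra9 at chr6:130191242-130191301, Klra4 at chr6:130065243-130065302 and Klra8 at chr6:130128101-130128160). Capitals mark bases that differ from Klra3 at the same position.
Klra3: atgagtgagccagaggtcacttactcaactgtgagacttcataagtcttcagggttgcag
Klra7: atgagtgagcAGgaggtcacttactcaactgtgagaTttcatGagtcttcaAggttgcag
Klra9: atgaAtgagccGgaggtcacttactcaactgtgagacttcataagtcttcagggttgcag
Klra4: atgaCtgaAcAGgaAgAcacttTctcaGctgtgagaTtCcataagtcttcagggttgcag
Klra8: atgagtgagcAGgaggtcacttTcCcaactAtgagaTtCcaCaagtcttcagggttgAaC

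Klra3, Klra7 and Klra9 encode the inhibitory receptors Ly49C, Ly49G and Ly49I, and Klra4 and Klra8 encode the activating receptors Ly49D and Ly49H. Klra9 differed from Klra3 at 2 of the 60 positions, Klra7 at 5, and Klra4 and Klra8 at 10 each. Counted from 1 at the A of the start codon, with the Klra3 base first, both activating members carried A23T and T39C, which neither Klra7 nor Klra9 carried. Over the whole coding sequence Klra3 and Klra9 were 95.9% identical, Klra8 was 90.5% identical to Klra3 and 91.9% to Klra9, and Klra4 and Klra7 were 79.4% identical to each other. Coding identity between Klrc1 and Klrc2 was 81.0%, with a longest shared run of 100 bases.

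That likeness bears on how far reads can be told apart. Of all 100-base windows along the coding sequence, 45.8% of those of Klrb1c also occurred in an annotated transcript of another gene (Klrb1a or Gm44511), 17.1% of those of Klrc2 (Klrc1 or Klrc3) and 10.4% of those of Klra8 (Klra9 or the pseudogene Klra14-ps). The share was 4.15% for Klra9, 3.79% for Klrc1, 3.15% for Klra3 and 3.1% for Klra7. Klra4, Klrd1 and Klrk1 shared no such window. The levels of Klrb1c, Klrc2 and Klra8 are therefore less certain as values of 1 gene.

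The promoters of the 5 Klra genes are shown because the levels of these genes were low together in the busulfan groups. Each line gives 100 bases of the RefSeq promoter entry (GRCm38.p6, minus strand), and the capitals mark the longest run of letters that all 5 of the 300-base promoters hold, TTTCCTCTTTT. The windows are Klra3 at chr6:130337586-130337685, Klra7 at chr6:130233352-130233451, Klra9 at chr6:130193091-130193190, Klra4 at chr6:130067291-130067390 and Klra8 at chr6:130129919-130130018.
Klra3: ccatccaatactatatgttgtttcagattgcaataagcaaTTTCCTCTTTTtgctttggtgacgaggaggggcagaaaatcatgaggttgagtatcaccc
Klra7: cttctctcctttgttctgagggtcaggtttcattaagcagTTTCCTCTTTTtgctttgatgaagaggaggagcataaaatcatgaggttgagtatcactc
Klra9: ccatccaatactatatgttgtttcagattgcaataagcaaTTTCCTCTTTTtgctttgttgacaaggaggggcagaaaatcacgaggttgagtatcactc
Klra4: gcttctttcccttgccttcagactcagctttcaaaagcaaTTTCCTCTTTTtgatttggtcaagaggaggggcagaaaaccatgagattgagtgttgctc
Klra8: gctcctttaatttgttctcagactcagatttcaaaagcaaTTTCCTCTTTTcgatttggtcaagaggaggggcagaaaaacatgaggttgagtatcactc

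The run of 11 letters began 19 bases before the annotated start site in Klra3, 38 bases before it in Klra9, and 79, 80 and 89 bases before it in Klra4, Klra8 and Klra7. Searched on both strands, it was present in 49 of 32851 RefSeq promoters of the same length (0.149%). Klra2, Klra6 and Klra17 of the same gene family were among the other carriers. Klra2 and Klra6 did not pass the filter. By group mean Klra2 was at 0.647 RPKM in Con-sa and 0.71 in B-sa mice, and Klra6 was at 0.257 and 0.103. Klra17 passed the filter and was at 9.34 and 6.86 RPKM. Whether the run has a part in these levels was not tested. The promoters of Klra3 and Klra9 were 85.0% identical, and those of Klra4 and Klra8 were 86.0% identical. Promoter identity between Klra3 and Klra4 was 44.8%. The matching letters are a description of these windows, and no factor was tested. Klrb1c, Klrc1, Klrc2 and Klrk1 also had a promoter entry, giving 9 of 10 genes.

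All 10 genes had a level above 0 in each of the 12 spleens. In Con-sa mice Klrd1 was the highest, at 16.1 ± 2.23 RPKM (mean ± SD, n = 3), and its lowest mouse was above the highest mouse of any other gene in the list. Klrk1 (8.37 ± 0.454) and Klra9 (7.89 ± 0.575) came next and overlapped each other. Klra4 and Klra7 followed, at 5.13 and 5.02 RPKM, and also overlapped. Klrb1c stood at 3.66 RPKM, and Klra8 (2.80), Klrc1 (2.71), Klra3 (1.62) and Klrc2 (1.35) closed the order. In that order Klrb1c, Klra8 and Klrc1 overlapped one another, and Klrc2 overlapped Klra3. Klrd1, Klrk1 and Klra9 kept the first 3 places by mean in all 4 groups.

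These are low levels for a whole organ. The smallest steps of the RPKM values put the depth of a spleen between about 15600000 and 16300000 reads. That puts Klrd1 at about 91 to 201 reads per mouse, Klra3 at about 4 to 27 and Klrc2 at about 3 to 24. The read numbers are estimates, since 79.8% to 87.9% of low values fell within 0.2 of a whole read. All 10 genes passed the filter used for testing (at least 1 RPKM in at least 3 mice). Klra3 passed it only through the Con-sa mice, where it is highest, so it had to differ between groups.

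**Figure D1:**
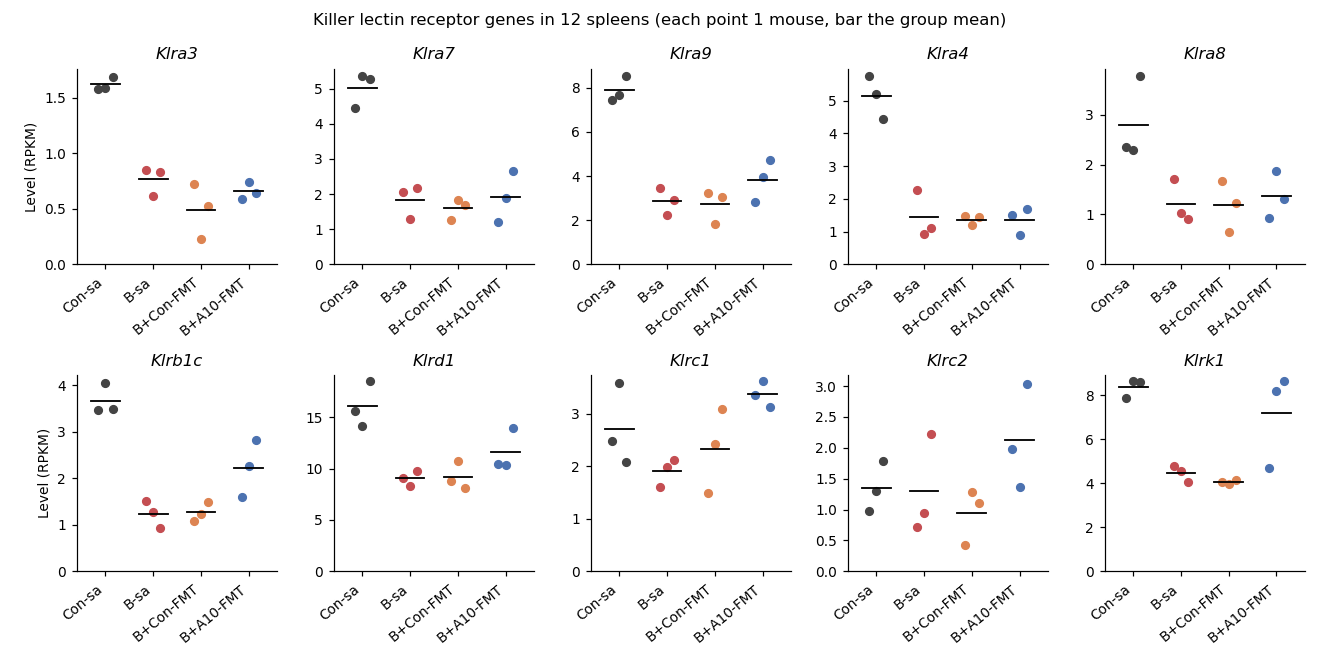
Level (RPKM, linear axis from 0) of each of the 10 genes in each of the 12 spleens; points are mice and bars are group means (n = 3 per group). In 7 panels (the 5 Klra genes, Klrb1c and Klrd1) all 9 busulfan mice lie below the 3 Con-sa mice, while Klrk1 shows 2 B+A10-FMT mice at the Con-sa level.

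The inhibitory Ly49 genes were lower after busulfan in every treated spleen. Klra3 was at 1.58, 1.59 and 1.69 RPKM in Con-sa mice. It was at 0.85, 0.62 and 0.83 in B-sa, 0.72, 0.23 and 0.53 in B+Con-FMT and 0.59, 0.74 and 0.64 in B+A10-FMT mice. All busulfan mice were thus below the lowest Con-sa mouse, and the 3 busulfan groups overlapped.

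Klra7 was at 4.44, 5.36 and 5.27 RPKM in Con-sa mice. Its values were 2.07, 1.28 and 2.17 in B-sa, 1.27, 1.83 and 1.68 in B+Con-FMT and 1.2, 1.90 and 2.66 in B+A10-FMT mice. Group means after busulfan were 36.6%, 31.7% and 38.2% of the Con-sa mean, and the busulfan groups overlapped one another. Klra9, the most abundant of the 5 Klra genes, was at 7.46, 7.66 and 8.54 RPKM in Con-sa mice. Levels of 3.48, 2.23 and 2.94 were found in B-sa, 3.24, 1.84 and 3.07 in B+Con-FMT, and 2.82, 3.94 and 4.75 in B+A10-FMT mice. B+A10-FMT mice 2 and 3 were above all B-sa and B+Con-FMT mice for Klra9, and mouse 1 was not.

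The activating Ly49 genes were low in the same spleens. Klra4 (Ly49D) was at 5.74, 5.21 and 4.44 RPKM in Con-sa mice. It stood at 2.27, 0.92 and 1.12 in B-sa, 1.47, 1.2 and 1.44 in B+Con-FMT and 1.51, 0.90 and 1.70 in B+A10-FMT mice. Its means after busulfan were 28.0%, 26.7% and 26.7% of the Con-sa mean, the lowest percentages of the 10 genes in each busulfan group.

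Klra8 encodes Ly49H, which recognises a protein of mouse cytomegalovirus, and was at 2.35, 2.29 and 3.77 RPKM in Con-sa mice. It reached 1.71, 1.03 and 0.91 in B-sa, 1.68, 0.65 and 1.23 in B+Con-FMT and 0.93, 1.88 and 1.32 in B+A10-FMT mice. The gap between the groups was narrower than for Klra4, with 1.88 RPKM in the highest busulfan mouse against 2.29 in the lowest Con-sa mouse.

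Klrb1c encodes the activating receptor NKR-P1C, an antigen used to define natural killer cells in some strains. Con-sa mice were at 3.46, 4.05 and 3.48 RPKM. Values of 1.5, 1.27 and 0.93 were found in B-sa, 1.08, 1.24 and 1.48 in B+Con-FMT, and 1.59, 2.26 and 2.83 in B+A10-FMT mice. All 3 B+A10-FMT mice were above all 6 mice of the other busulfan groups and below all Con-sa mice.

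Klrd1 (CD94) was at 15.7, 14.2 and 18.6 RPKM in Con-sa mice. It was at 9.05, 8.36 and 9.74 in B-sa, 8.82, 10.8 and 8.10 in B+Con-FMT and 10.5, 10.3 and 14.0 in B+A10-FMT mice. B+A10-FMT mouse 3, at 14.01 RPKM, lay just under the lowest Con-sa mouse at 14.19, and the other busulfan mice were at most at 10.78.

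The partner chains of CD94 had another pattern. Klrc1 (NKG2A, inhibitory) was at 2.47, 3.59 and 2.08 RPKM in Con-sa mice. Levels in the busulfan groups were 1.60, 1.99 and 2.11 in B-sa, 1.49, 2.42 and 3.08 in B+Con-FMT, and 3.36, 3.62 and 3.12 in B+A10-FMT mice. Con-sa overlapped all 3 busulfan groups, and the B+A10-FMT mean was 124% of the Con-sa mean.

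Klrc2 (NKG2C, activating) was at 0.97, 1.30 and 1.79 RPKM in Con-sa mice. Its levels were 0.72, 0.94 and 2.23 in B-sa, 0.42, 1.28 and 1.11 in B+Con-FMT and 1.98, 1.36 and 3.04 in B+A10-FMT mice. The groups overlapped except that all B+A10-FMT mice were above all B+Con-FMT mice. On curated transcripts alone these groups overlapped too, at 0, 0.03 and 0.88 RPKM in B+Con-FMT and 0.96, 0.81 and 1.94 in B+A10-FMT mice. The lowest estimated read number of the list was that of Klrc2 in B+Con-FMT mouse 1 (about 3.4), close to Klra3 in B+Con-FMT mouse 2 (about 3.8).

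Klrk1 (NKG2D) was at 7.85, 8.66 and 8.61 RPKM in Con-sa mice. The 6 mice of B-sa (4.80, 4.54 and 4.04) and B+Con-FMT (4.07, 3.97 and 4.13) were all below these. In B+A10-FMT, mouse 1 was at 4.71 RPKM, within the B-sa range, and mice 2 and 3, at 8.18 and 8.63, were within the Con-sa range.

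Each comparison was made on log2(RPKM + 1) with limma over all 12671 genes that passed the filter, and genes with a Benjamini-Hochberg adjusted p under 0.05 were called. On this scale the change of a low gene is understated. For B-sa against Con-sa, which asks what busulfan alone did, 8 of the 10 genes were called lower, beside 9.78% of all genes tested. Nothing is read from this count, because the same values chose the list. The differences of the called genes ran from −0.57 ± 0.12 (standard error) for Klra3 to −1.37 ± 0.18 for Klra4. Klra9 differed by −1.21 ± 0.18, Klra7 by −1.10 ± 0.17 and Klrb1c by −1.07 ± 0.14. Klrk1 (−0.78 ± 0.15), Klra8 (−0.77 ± 0.21) and Klrd1 (−0.76 ± 0.13) formed a closer group. Klrc1 (−0.34 ± 0.17) and Klrc2 (−0.08 ± 0.27) were not called. The median over the 10 genes was −0.78, against −0.04 over all genes tested. The called genes were also those in which all 3 B-sa mice were below all 3 Con-sa mice, as were 22.8% of all genes tested.

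For 7 genes (the 5 Klra genes, Klrb1c and Klrd1) all 9 busulfan mice were below all 3 Con-sa mice, a pattern that 3.95% of all genes tested had in this direction. Klra3 is among them, and since it passed the filter only through the Con-sa mice, its outcome was fixed. Nothing is read from this count either, because the same values chose the list.

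The transfer comparisons ask what each microbiota added after busulfan, and they share the B-sa mice or the B+Con-FMT mice with one another. For B+Con-FMT against B-sa none of the 10 genes was called by limma, beside 0.844% of all genes in either direction, and 0 of 10 had an unadjusted p under 0.05, beside 18.4% of all genes. The differences lay between −0.25 ± 0.12 (Klra3) and 0.17 ± 0.17 (Klrc1), with a median of −0.05. All 10 genes overlapped between these groups.

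For B+A10-FMT against B-sa, Klrb1c was called higher, at 0.52 ± 0.14, where 4% of all genes tested were called higher. Klrc1 differed by 0.59 ± 0.17, Klrk1 by 0.55 ± 0.15, Klrc2 by 0.47 ± 0.27, Klrd1 by 0.32 ± 0.13 and Klra9 by 0.31 ± 0.18, none of them called. The other Klra genes lay between −0.09 and 0.10. The median over the 10 genes was 0.31, against 0.05 over all genes, and 4 of 10 had an unadjusted p under 0.05, beside 24.5% of all genes. For Klrb1c, Klrc1 and Klrd1 the 3 B+A10-FMT mice were all above the 3 B-sa mice, as were 19.7% of all genes tested.

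For B+A10-FMT against B+Con-FMT, Klrk1 (0.66 ± 0.15) and Klrb1c (0.49 ± 0.14) were called higher, beside 7.58% of all genes, and 5 of 10 had an unadjusted p under 0.05, beside 28.9%. In Klrb1c, Klrc1, Klrc2 and Klrk1 all B+A10-FMT mice were above all B+Con-FMT mice, as were 23.8% of all genes. Klrc2 differed by 0.69 ± 0.27, Klrc1 by 0.42 ± 0.17, Klra9 by 0.38 ± 0.18 and Klrd1 by 0.30 ± 0.13, and the remaining Klra genes lay between −0.01 and 0.16. The difference of Klrk1 rested on mice 2 and 3. It was 0.89 without B+A10-FMT mouse 1 and 0.52 without mouse 3.

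**Figure D2:**
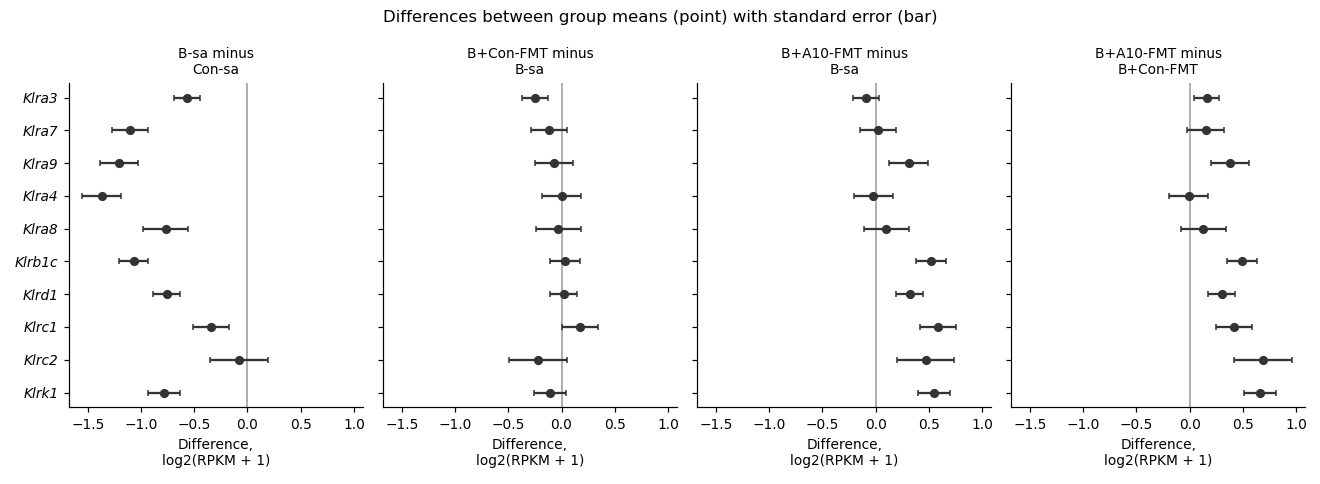
Difference between group means on the log2(RPKM + 1) scale (x axis; points, with standard errors as bars) for the 10 genes in 4 comparisons. In B-sa minus Con-sa all points lie below 0, from −0.08 (Klrc2) to −1.37 (Klra4), whereas in B+A10-FMT minus B-sa the Klra genes other than Klra9 lie within 0.10 of 0.

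Klrd1 is listed with 3 transcripts, 1 curated and 2 predicted, and the levels of both classes differed in pattern. The curated transcript was at 5.96, 4.79 and 8.52 RPKM in Con-sa mice. It was at 5.24, 6.47 and 5.56 in B-sa, 6.25, 8.41 and 6.20 in B+Con-FMT and 9.03, 7.78 and 9.31 in B+A10-FMT mice. Con-sa thus overlapped each busulfan group for the curated transcript. The predicted transcripts summed to 9.70, 9.40 and 10.1 RPKM in Con-sa mice. Their sum was 3.81, 1.89 and 4.18 in B-sa, 2.57, 2.37 and 1.90 in B+Con-FMT and 1.46, 2.56 and 4.70 in B+A10-FMT mice. All 9 busulfan mice were below all Con-sa mice for the predicted transcripts.

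The curated transcript made up 39.3% of the Klrd1 level in Con-sa mice (mean of 3 mice). It made up 64.1% after busulfan alone, and with transfer this was 75.1% (B+Con-FMT) or 75.9% (B+A10-FMT). Counted on curated transcripts alone, the Klrd1 difference for B-sa against Con-sa was −0.11 in place of −0.76. The part that the division of reads among the transcripts of 1 gene had in the split was not tested.

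For Klrc1, too, a predicted transcript carried a large share in single mice. It was listed at 2.03 RPKM in Con-sa mouse 1 and at 1.28 and 2.64 in B+A10-FMT mice 1 and 2, and at 0 in the other 9 mice. On curated transcripts alone the Klrc1 difference was 0.08 for B-sa against Con-sa and −0.16 for B+A10-FMT against B+Con-FMT, so both turned sign. For B+A10-FMT against B-sa it was 0.02 in place of 0.59, and the curated levels of the B+A10-FMT mice (2.08, 0.98 and 3.12 RPKM) overlapped those of the B-sa mice. Why reads went to that transcript in 3 mice was not tested.

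Ncr1, which encodes the natural killer receptor NKp46 on another chromosome, served as a reference outside the complex. It was at 12.7, 13.3 and 12.6 RPKM in Con-sa mice, 4.31, 3.99 and 3.91 in B-sa, 3.15, 2.51 and 3.29 in B+Con-FMT and 3.10, 5.85 and 6.32 in B+A10-FMT mice. All 9 busulfan mice were below the Con-sa mice, and B+A10-FMT mice 2 and 3 were above mouse 1, as they were for Klrk1, Klrb1c, Klra3, Klra7, Klra8 and Klra9. Ncr1 fell in B-sa against Con-sa (−1.45 ± 0.17, adjusted p = 0.0022 by limma) and was not called in B+A10-FMT against B-sa (0.22 ± 0.17, adjusted p = 0.452).

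With Ncr1 as the divisor in the same spleen, the levels of Klra4, Klra7, Klra8 and Klra9 overlapped between Con-sa and B-sa. For Klra4 the ratio was 0.399 in Con-sa and 0.348 in B-sa, for Klra7 0.390 and 0.452, and for Klra9 0.613 and 0.706 (means of 3 mice). After transfer Klra4, Klra7 and Klra8 overlapped Con-sa in both groups, whereas Klra9 in B+Con-FMT (0.733 to 1.03) was above all Con-sa mice (0.576 to 0.677) and in B+A10-FMT (0.674 to 0.910) overlapped them. The ratio of Klra3 did not overlap between Con-sa (0.120 to 0.134) and B-sa (0.155 to 0.212), and it overlapped Con-sa in both transfer groups. The Klrb1c ratio was 0.284 in Con-sa and 0.301 in B-sa mice, and it was 0.429 and 0.449 after control and A10 transfer, with both transfer groups above all Con-sa mice.

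The CD94, NKG2 and NKG2D genes were higher relative to Ncr1 in the busulfan groups. For Klrd1 and Klrk1 in B-sa and B+Con-FMT this direction depended on Ncr1 as the reference. The Klrd1 ratio was 1.26 in Con-sa mice, against 2.23 after busulfan alone, 3.19 with control transfer and 2.46 with A10 transfer. Klrk1 moved from 0.651 in Con-sa to 1.09, 1.38 and 1.43, and Klrc1 from 0.210 to 0.470, 0.791 and 0.732. For these 3 genes the ratio in all 9 busulfan mice was above that in all Con-sa mice. Klrc2 went from 0.105 to 0.324, 0.327 and 0.451, with overlap in B+Con-FMT. Ncr1 itself fell more than most of the natural killer genes tested. With Il2rb or Nkg7 as the reference, chosen after the data were seen, the order turned for Klrd1 and Klrk1 in B-sa and B+Con-FMT. The Klrd1 ratio to Il2rb was 0.687 in Con-sa and 0.509 in B-sa mice, and the Klrk1 ratio was 0.356 and 0.250. Relative to Il2rb or Nkg7, Klrd1 and Klrk1 were lower in all B-sa and B+Con-FMT mice than in all Con-sa mice and overlapped Con-sa in B+A10-FMT. Klrc1 and Klrc2 overlapped Con-sa in B-sa and B+Con-FMT with either reference. In B+A10-FMT, Klrc1 was above all Con-sa mice with both references, and Klrc2 was with Il2rb but not with Nkg7. All 5 Klra genes and Klrb1c were lower than in Con-sa in B-sa and B+Con-FMT mice with either of these references. Ratios among genes of 1 spleen were not tested.

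**Figure D3:**
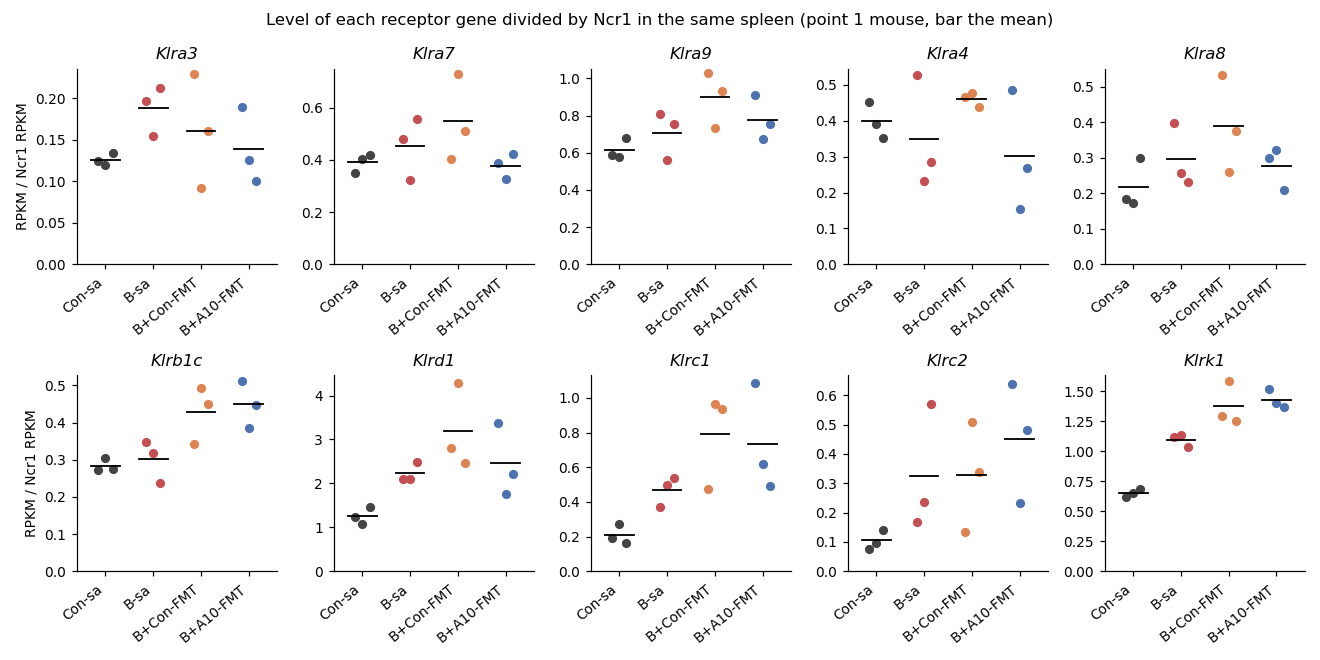
Level of each of the 10 genes divided by the level of Ncr1 in the same spleen (y axis, ratio of RPKM values, from 0); points are mice and bars are group means. Klrd1, Klrc1 and Klrk1 lie higher in all 9 busulfan mice than in Con-sa mice (Klrk1 at most 0.682 in Con-sa and at least 1.03 after busulfan), whereas the Klra4 groups overlap.

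Spread between mice of a group was wide for these genes. The within-group SD of log2(RPKM + 1) ran from 0.14 (Klra3) to 0.38 (Klrc2), which placed the 10 genes between the 75.2 and 97.6 percentile of all genes tested. Low read numbers widen such spread, and their part was not tested. The stock is outbred and the receptors are known to be polymorphic. No gene of the 10 was at 0 in any mouse. For Klra3 and Klrc2, whose lowest mice had about 4 and 3 reads and which share windows with related genes, a value above 0 does not show that a mouse carries the gene.

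After the group means were removed, the 10 genes did not all move together from mouse to mouse. Pearson's r over the 12 mice was 0.83 for Klrb1c and Klrk1, 0.80 for Klra3 and Klra9, 0.75 for Klra3 and Klra8, and 0.74 for Klra8 and Klra9. It was −0.52 for Klra8 and Klrc1 and −0.41 for Klrc1 and Klrd1. The points share their libraries, and the coding sequences of Klra3, Klra8 and Klra9 are 90.5% to 95.9% identical. Among all other genes tested, the 2 whose levels were most like those of a member by the same measure were Nop58 (0.95) and Tk2 (0.94) for Klrb1c, Clec4a4 (0.99) and Zc3h10 (0.94) for Klrd1, and Dusp4 (0.97) and Nipsnap2 (0.96) for Klrk1.

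For Klrc1 they were Serpinb6a (0.94) and Robo2 (0.92), and for Klrc2 they were Ogfod2 (0.94) and Ankrd6 (0.92). For the Klra genes they were Pus3 and Rad17 (Klra3, 0.95 and 0.93), Gm5141 and Heatr1 (Klra4, 0.96 each), Snx8 and Pus10 (Klra7, 0.94 each), Gal3st2b and Rnf166 (Klra8, 0.97 and 0.96) and Zw10 and Ostm1 (Klra9, 0.97 each). Each is the top of 12671 correlations over 12 mice.

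Of 16 other killer lectin receptor genes of the mouse, 10 passed the filter. Klra1 and Klrb1a passed it only through the Con-sa mice, so they had to differ and are left out of the count. Of the other 8 genes, 5 fell after busulfan alone (B-sa against Con-sa), beside 9.78% of all genes tested. With at least 1 RPKM asked of every mouse 5 genes were left, of which Klra17, Klrb1b and Klre1 fell, while Klri2 and Klrc3 were no longer tested. Klri2, which forms a receptor with the chain encoded by Klre1, was at 3.39, 3.08 and 3.16 RPKM in Con-sa and 1.18, 0.94 and 1.29 in B-sa mice (−0.98 ± 0.10, adjusted p = 0.000963 by limma). Klre1 went from 5.47 to 2.01 RPKM by group mean (−1.11 ± 0.13), and Klrc3 (NKG2E), at 3.81, 3.49 and 3.42 in Con-sa and 0.97, 0.35 and 1.19 in B-sa mice, had the greatest difference (−1.34 ± 0.24). Klrb1b, an inhibitory relative of Klrb1c, differed by −1.03 ± 0.14. Klra17 was called lower too (−0.39 ± 0.11, adjusted p = 0.0303 by limma), but not with only the compared mice or without Con-sa mouse 2, Con-sa mouse 3 or B-sa mouse 2. Klrb1a differed by −0.78 ± 0.14 and Klra1 by −0.56 ± 0.14. Klrb1f (−0.31 ± 0.10), Klrg1 (−0.33 ± 0.18) and Klri1 (−0.08 ± 0.09) were not called.

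Klri2 and Klra17 were called higher in B+A10-FMT mice, where 4% of all genes were called higher against B-sa and 7.58% against B+Con-FMT. Klri2 was at 0.97, 0.85 and 1.07 RPKM in B+Con-FMT and at 1.98, 2.67 and 2.06 in B+A10-FMT mice. It rose by 0.60 ± 0.10 against B-sa (adjusted p = 0.00959 by limma) and by 0.72 ± 0.10 against B+Con-FMT (adjusted p = 0.00259). Klra17 encodes Ly49Q, known from plasmacytoid dendritic cells rather than natural killer cells, and was at 7.32, 5.86 and 7.41 RPKM in B-sa, 6.17, 5.27 and 6.75 in B+Con-FMT and 9.27, 9.99 and 9.11 in B+A10-FMT mice. It differed by 0.42 ± 0.11 against B-sa (adjusted p = 0.0432 by limma) and by 0.57 ± 0.11 against B+Con-FMT (adjusted p = 0.0094), and all its B+A10-FMT mice were above the mice of both other groups. Against B-sa the call of Klra17 was lost in 12 of 20 alternative settings (adjusted p from 0.0387 to 0.237), among them the replicate block, no filter, median-of-ratios scaling, curated transcripts alone and leaving out any 1 of the B+A10-FMT mice, B-sa mouse 2 or 3, Con-sa mouse 2 or B+Con-FMT mouse 1. With only the compared mice neither gene was called against B-sa (adjusted p = 0.0544 for Klri2), and against B+Con-FMT Klra17 was lost on curated transcripts or without B+A10-FMT mouse 2. None of the 10 other receptor genes was called in B+Con-FMT against B-sa by limma, beside 0.844% of all genes, and 1 of 10 had an unadjusted p under 0.05, beside 18.4% of all genes.

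**Figure D4:**
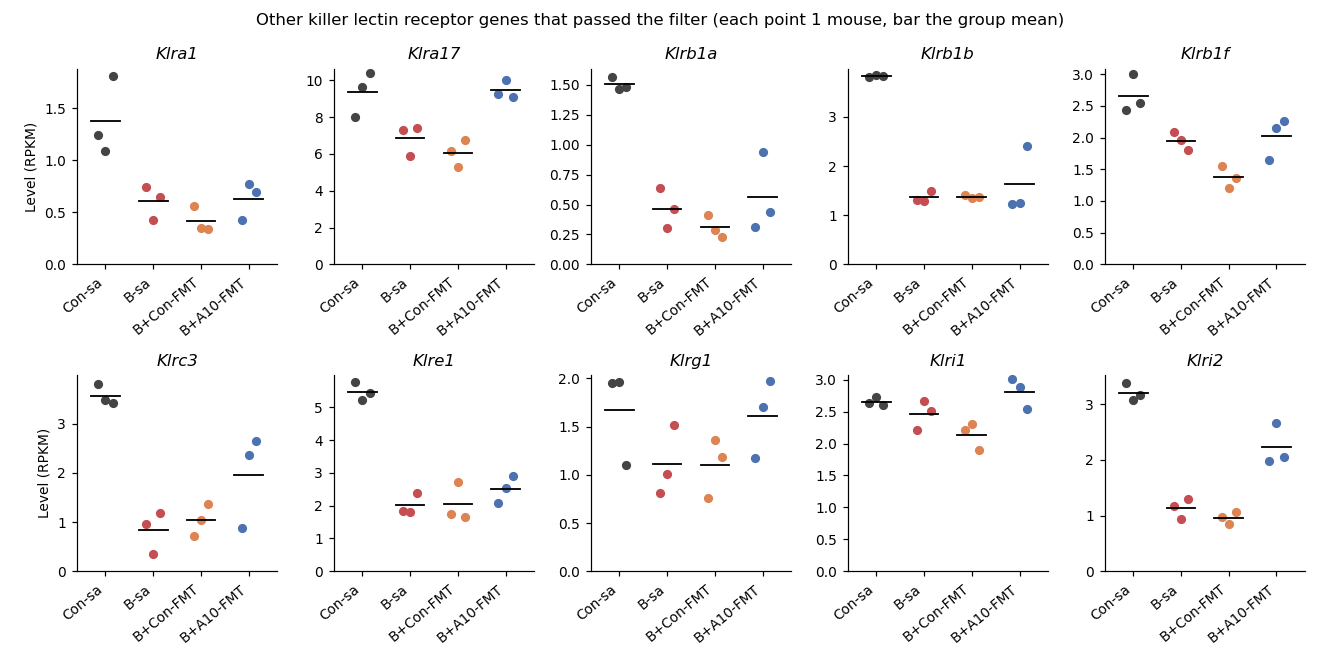
Level (RPKM, from 0) of the 10 other killer lectin receptor genes that passed the filter, in each of the 12 spleens; points are mice and bars are group means. Klri2 stands lowest in B-sa and B+Con-FMT (0.85 to 1.29 RPKM), between in B+A10-FMT (1.98 to 2.67) and highest in Con-sa (3.08 to 3.39), while Klri1 overlaps between Con-sa and B-sa.

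Of 17 adaptor and signalling genes, 1 fell in B-sa against Con-sa, beside 9.78% of all genes, and 1 rose in B+A10-FMT against B+Con-FMT, beside 7.58%. Syk, a kinase downstream of activating receptors, fell in B-sa (−0.37 ± 0.06, adjusted p = 0.0055 by limma), and Sh2d1b1, an adaptor of the SLAM family receptors, rose in B+A10-FMT against B+Con-FMT (0.46 ± 0.10, adjusted p = 0.0191). At an unadjusted p under 0.05 the number was 7 of 17 for B-sa against Con-sa, 8 for B+Con-FMT against B-sa, 8 for B+A10-FMT against B-sa and 4 for B+A10-FMT against B+Con-FMT. Over all genes tested the shares under that p were 31.3%, 18.4%, 24.5% and 28.9% in the same order. No adaptor gene was called by limma in either transfer group against B-sa. The partner adaptors Tyrobp (DAP12), which carries the signal of Ly49D and Ly49H, and Hcst (DAP10), which carries that of NKG2D, differed by −0.30 ± 0.11 and −0.01 ± 0.19 in B-sa against Con-sa and were not called. Of 13 ligand genes, 9 were listed and 6 tested, and none was called in any of the 4 comparisons by limma. At an unadjusted p under 0.05 this count was 1 of 6 in B+A10-FMT against B+Con-FMT, beside the 28.9% of all genes, and 0 in the other comparisons. H2-T23, which encodes Qa-1, was at 187 RPKM in Con-sa and 172 in B-sa by group mean. Among the Clec2 genes of the complex and Cd69, 4 of 7 were tested and Clec2i, a relative of the ligands of NKR-P1 receptors, fell in B-sa (−0.52 ± 0.11, adjusted p = 0.0121).

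Of 18 natural killer genes outside the complex, 11 were called lower in B-sa against Con-sa, beside 9.78% of all genes tested, with a median over the list of −0.41 (−0.04 over all genes). The number was 5 on curated transcripts or without Con-sa mouse 2, 6 with no filter, with median-of-ratios scaling or without Con-sa mouse 1, Con-sa mouse 3 or B-sa mouse 2, and 7 with the replicate block or without B+A10-FMT mouse 1. Ncr1, Gzma, S1pr5, Eomes and Prf1 were called lower in each alternative setting that tested them. Gzma (granzyme A) differed by −1.67 ± 0.28, S1pr5, which guides cells out of lymphoid organs, by −0.93 ± 0.14, Eomes, a transcription factor of the lineage, by −0.68 ± 0.10 and Prf1 (perforin) by −0.65 ± 0.10. Ncr1 is described above. The other 6, which lost their call in 2 to 16 of the settings, differed by −0.57 ± 0.13 (Il18rap), −0.49 ± 0.15 (Tbx21, a second transcription factor of the lineage), −0.43 ± 0.13 (Fasl), −0.39 ± 0.11 (Ccl5), −0.37 ± 0.11 (Il2rb) and −0.33 ± 0.10 (Il12rb2). In B+Con-FMT against B-sa Prf1 alone was called (0.50 ± 0.10, adjusted p = 0.0381 by limma), beside 0.844% of all genes in either direction. The call was lost in 9 of 20 settings (no filter, only the compared mice, curated transcripts, or without Con-sa mouse 1, B-sa mouse 2 or 3, or any 1 of the B+Con-FMT mice). With the replicate block or without B-sa mouse 1, Ccl5 was called as well. Prf1 (0.49 ± 0.10, adjusted p = 0.0185) and S1pr5 (0.55 ± 0.14, adjusted p = 0.04) were called higher in B+A10-FMT against B-sa by limma, beside 4% of all genes. Prf1 lost that call with only the compared mice, on curated transcripts or without B-sa mouse 2, and S1pr5 lost it in 14 of 19 settings, among them leaving out any 1 Con-sa, B-sa or B+A10-FMT mouse. Against B+Con-FMT, where 7.58% of all genes were called higher, 4 of the 18 were. Itga2 (0.57 ± 0.11) and Il12rb2 (0.53 ± 0.10) were called higher here and in all 19 settings that tested them, whereas Eomes (0.36 ± 0.10) lost its call in 8 of 20 and Cd244a (0.34 ± 0.09) in 11 of 20.

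Marker genes of other cells moved with some of these groups. Of the 8 natural killer markers, 7 were called lower in B-sa, beside 9.78% of all genes tested. All 8 are also in the list of 18 natural killer genes above, so these calls repeat calls given there. The calls of Il2rb and Tbx21 were lost in 15 and 13 of 20 settings. The 8 markers summed to 144 to 155 RPKM in Con-sa mice. Their sum was 79.3 to 91.1 in the B-sa group, 81.2 to 93.8 with control transfer and 81.3 to 101 with A10 transfer. The 9 T cell markers summed to 286 to 337 RPKM in Con-sa and 281 to 349 in B-sa mice, so these ranges overlapped. With transfer they reached 356 to 444 (B+Con-FMT) and 306 to 352 (B+A10-FMT). Of these Cd8b1 was called lower in B-sa (−0.39 ± 0.11) and Cd3e higher in B+Con-FMT against B-sa (0.48 ± 0.10). Of the B cell markers Ms4a1, Cd79a, Cd79b and Cd22 were called lower in B-sa (by −0.45 to −0.32), and Pax5 was called lower in B+A10-FMT against B+Con-FMT (−0.28 ± 0.07). The neutrophil markers, of which Camp was called higher in B-sa (1.13 ± 0.30), summed to 1952 to 2029 in Con-sa and 3480 to 5680 in B-sa. Of the 6 monocyte and macrophage markers, 2 were called higher in B+A10-FMT against B-sa (Csf1r, 0.46 ± 0.12, and Spic, 0.50 ± 0.11), beside 4% of all genes. Against B+Con-FMT 4 were called higher (Csf1r, Spic, Vcam1 and Cd68, by 0.33 to 0.46), beside 7.58%. Klri2, Klra17, Klrb1c and some natural killer genes were called higher in the same comparisons. The 6 monocyte and macrophage markers summed to 359 to 392 RPKM in Con-sa mice, 348 to 447 after busulfan alone, 292 to 391 with control transfer and 379 to 538 with A10 transfer. None of these markers was at 0 in any mouse.

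Other lists moved as well. Among 7 markers of gamma delta T cells, NKT cells and innate lymphoid cells, which summed to 26.9 to 30.8 RPKM in Con-sa mice, 24.0 to 27.6 after busulfan alone, 30.9 to 34.0 with control transfer and 30.6 to 32.1 with A10 transfer, Il7r fell in B-sa (−0.33 ± 0.10) and rose against B-sa in both transfer groups (0.49 ± 0.10 each). In the same list Il1rl1 was called higher in B-sa (0.32 ± 0.10) and Gata3 lower in B+A10-FMT against B+Con-FMT (−0.32 ± 0.09). The beta globin genes Hbb-bs and Hbb-bt shifted more than these. Hbb-bs was at 20290 to 45902 RPKM in Con-sa and 9.2 to 30.5 in B-sa mice (−10.63 ± 1.96, adjusted p = 0.0135 by limma). It was at 36.4, 20930 and 4025 RPKM in B+Con-FMT and at 8916, 13234 and 10623 in B+A10-FMT mice (9.22 ± 1.96 against B-sa, adjusted p = 0.0388). Hbb-bt was called in both of these comparisons too (−8.82 ± 1.72 and 7.42 ± 1.72), while Hba-a1 was called the other way (0.30 ± 0.09 and −0.38 ± 0.09). The 7 erythroid markers together summed to 129352 to 164456 RPKM in Con-sa and 121736 to 146317 in B-sa mice, so that these sums overlapped. Kidney and pancreatic genes were present too, with kidney sums of 75.3 to 117 RPKM in Con-sa and at most 61.8 in busulfan mice (Kap was called lower in B-sa, and in B+A10-FMT against both other busulfan groups). Slc34a1 was also called lower in B-sa, but passed the filter only through the Con-sa mice and so had to differ. The pancreatic markers summed to 807 to 4290 RPKM in Con-sa mice, 291 to 2001 after busulfan alone, 4980 to 7718 with control transfer and 297 to 5998 with A10 transfer. Control transfer thus stood above Con-sa and B-sa in these sums. All 7 pancreatic markers had an unadjusted p under 0.05 in B+Con-FMT against B-sa, beside 18.4% of all genes. None was called there by limma, beside 0.844% of all genes. The part of these shifts in the levels of the receptor genes was not tested.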

How the data were processed

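RNA of 12 spleens was measured by RNA-seq of poly(A) RNA. The authors deposited 1 table per spleen with RPKM per RefSeq transcript; the unit is named in the study's methods, the header gives only an expression value. Those methods name SOAPaligner, while the submitters' processing notes name HISAT, Bowtie2 and mm10; the SOAPaligner settings given include -r 2, its option for reads with several hits, but how such hits entered the RPKM values is not given in the sources used here. RPKM was summed per Entrez gene (18221 genes; 18101 matched to a symbol). limma 3.58.1 (R 4.3.3; trended, robust) was run on log2(RPKM + 1) for genes with at least 1 RPKM in at least 3 mice, with all 12 mice in 1 fit. Depth was estimated from value steps. For read numbers, a transcript without a matched length was given the median length of the gene's other transcripts. Coding sequences came from GENCODE transcripts matched to RefSeq (GRCm38), promoters from RefSeq (GRCm38.p6), with Biopython 1.88. The members and the gene lists were chosen with earlier results of these data known. Genes were named by rule: all members, genes of the receptor, Clec2, adaptor, ligand and natural killer lists called in any comparison, other killer lectin receptors that passed the filter, Ncr1, and for each member the 2 genes most like it. No replicate number in the labels marks a shared litter or day. Same-numbered mice did not deviate together (r between −0.37 and 0.19). Alternatives were another pseudocount, other filters, a replicate block, the compared mice only, each mouse left out, 2 other scalings and curated transcripts only. Hcst, Tyrobp, H2-T23 and called genes of the cell marker lists were added after their values were seen; 1 item is not reported here.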

Additional observations from a re-analysis of the deposited data

How the results depend on the processing

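The counts of genes called depended on the settings. Leaving out each mouse in turn gave 510 to 2100 genes for B-sa against Con-sa (1838 with all mice; 510 without B-sa mouse 2), 19 to 468 for B+Con-FMT against B-sa (107; 19 without B-sa mouse 2 and 468 without B-sa mouse 1), 106 to 833 for B+A10-FMT against B-sa (668; 106 without B+A10-FMT mouse 2) and 222 to 1559 for B+A10-FMT against B+Con-FMT (1312; 222 without B+A10-FMT mouse 2). With only the compared mice the first 3 counts were 972, 32 and 158, and on curated transcripts alone the 4 counts were 741, 25, 203 and 546. The second count was 71 with no filter, and it and the fourth were 180 and 2339 with equal totals outside the globin genes. The third was 417 with the replicate block.

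Among the other killer lectin receptors, leaving out single mice gave 5 to 7 calls for B-sa against Con-sa (7 with all mice, Klra1 and Klrb1a included), 1 to 2 for B+A10-FMT against B-sa and 1 to 4 for B+A10-FMT against B+Con-FMT. The first count was 3 when at least 1 RPKM was asked of every mouse, with 5 genes tested in place of 10. The second was 1 in place of 2 with no filter, with 1 RPKM in every mouse, with the replicate block, with median-of-ratios scaling or on curated transcripts, and 0 with only the compared mice. The third was 4 with equal totals outside globin and 1 on curated transcripts. Among the natural killer genes outside the complex the leave-one-out ranges were 5 to 11, 0 to 2, 0 to 3 and 2 to 4. The 11 calls became 6 with no filter or median-of-ratios scaling, 7 with the replicate block and 5 on curated transcripts. The single call for B+Con-FMT became 2 with the replicate block and 0 with no filter, with only the compared mice or on curated transcripts. The 2 calls for B+A10-FMT against B-sa became 1 with no filter, 1 RPKM in every mouse or median-of-ratios scaling, and 0 with only the compared mice or on curated transcripts. The 4 against B+Con-FMT became 2 and 1 under those last settings. The causes were not tested.

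Scaling moved the split of higher and lower calls. With median-of-ratios scaling it was 966 and 736 in place of 599 and 1239 for B-sa against Con-sa, 287 and 329 in place of 507 and 161 for B+A10-FMT against B-sa, and 551 and 695 in place of 960 and 352 for B+A10-FMT against B+Con-FMT. With equal totals outside globin it was 67 and 113 in place of 79 and 28 for B+Con-FMT against B-sa and 2100 and 239 for B+A10-FMT against B+Con-FMT.

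The differences of the 10 receptor genes, given as a description, ranged as follows over the settings that could be computed. For B-sa against Con-sa, 8 of the 10 kept their sign in all of them (Klra4 from −1.86 to −1.07, Klrd1 from −0.85 to −0.11, Klrk1 from −0.90 to −0.72), while Klrc1 reached 0.08 and Klrc2 0.10. For B+A10-FMT against B-sa, Klrb1c ranged from 0.39 to 0.79 and Klrk1 from 0.41 to 0.79. With Il2rb or Nkg7 in place of Ncr1 as the reference, a choice made after the data were seen, the log2 ratio of B-sa to Con-sa was −0.70 and −0.88 in place of 0.57 for Klra3, −0.44 and −0.62 in place of 0.83 for Klrd1, −0.10 and −0.28 in place of 1.18 for Klrc1 and −0.52 and −0.70 in place of 0.75 for Klrk1. The log2 ratio of Klrc2 kept its sign, at 0.2 and 0.02 in place of 1.47. Same-numbered mice shared a number only, and at most 1 of 3 correlated best with its own number. Depth limits Klra3 and Klrc2 most, at about 4 and 3 reads in their lowest mice.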
